A study of Homo sapiens with 12 samples.

Results

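The replication-dependent histone genes are the clustered genes that encode the linker histone H1 and the core histones H2A, H2B, H3 and H4. A gene was taken as a member when a probe set of the array named it alone and its symbol was H1-1 to H1-6, or H2AC, H2BC, H3C or H4C with a number. This gave 57 of the 18417 genes measured, with 6 in class H1, 14 in H2A, 16 in H2B, 8 in H3 and 13 in H4. By the RefSeq annotation, 49 members lie on chromosome 6, 7 on chromosome 1 and 1, H4C16, on chromosome 12. Each member had 1 probe set that named it alone, and those of H4C14 and H4C15 held equal values on every array. The 57 members thus carry 56 distinct sets of values. Some members are also named by probe sets that name several genes, described separately below.

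All cells were MCF10A, a non-tumorigenic human breast epithelial line, stably carrying a full-length human HER2 chimera tagged with FKBP and HA; the labels do not say whether they were 1 clone or a pool. The 4 groups of 3 arrays each were measured with biotin-labelled total RNA on Affymetrix arrays. Of these groups, 3 received AP1510, a bivalent ligand that joins FKBP-tagged receptors, TGF-alpha, a ligand of EGFR, or heregulin, a ligand of HER3 and HER4, and 1 was left untreated. In every group serum and EGF were withdrawn while cholera toxin at 100 ng/ml, hydrocortisone at 500 ng/ml and insulin at 10 microgram/ml stayed; ligand followed after 24 hours, and RNA was collected 48 hours later. The labels used here do not state the ligand doses, a vehicle or when the untreated dishes were harvested. Values are RMA log2 intensities, between 1.75 and 14.2, with array medians of 5.33 to 5.44. Across probe sets, the correlation was 0.988 to 0.994 between arrays of 1 group and 0.978 to 0.993 between groups. The 7 measured epithelial markers averaged 10.08 to 10.71 per array, against 3.88 to 4.04 for 4 leukocyte, 5.79 to 6.03 for 4 endothelial and 5.04 to 5.46 for 4 fibroblast markers. The endothelial average holds PECAM1, which lay between 8.1 and 8.72.

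Histone proteins package DNA into nucleosomes: H2A, H2B, H3 and H4 form the core, and H1 binds the linker DNA between cores. Clustered histone genes are transcribed mainly in S phase, when new DNA has to be packaged, under the coactivator NPAT. Their mRNAs mostly end in a stem loop bound by SLBP instead of a poly(A) tail, and are degraded when DNA synthesis stops. Some members also make polyadenylated transcripts. The labelling kit that the labels name primes cDNA from poly(A) tails in its standard protocol, while the 33297 probe sets of the table are as on a whole-transcript array. Which priming was used could not be settled, and its part in the levels of stem-loop mRNAs was not tested. In bulk cells, a larger share of cells in S phase and more histone mRNA per cell cannot be told apart. Members of 1 class have closely similar coding sequences, so a probe set may read more than the gene it names, and a level is compared here only with the same probe set on other arrays.

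TGF-alpha was the treatment in which histone transcripts stood highest. In a limma fit over all 18417 genes, with Benjamini-Hochberg adjustment within each contrast and a threshold of 0.05 on the adjusted p, 41 of the 57 members were higher in TGF-alpha cells than in untreated cells, where 12.5% of all genes tested were higher. H2BC21 alone was lower, beside 13.4% of all genes, and 15 members did not pass. The median member changed by 0.74 on the log2 scale, a size of 1.67-fold, beside -0.01 for all genes, and 18 members were at least 2-fold higher, beside 2.17% of all genes. With AP1510, 5 members were higher and 0 lower than in untreated cells, beside 0.771% and 0.7% of all genes, and the median change was 0.17 beside -0.01. With heregulin, 0 were higher and 4 lower, beside 3.45% and 5.06% of all genes, and the median change was -0.13 beside 0.01. The share of members lower with heregulin was thus near the background.

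These 3 comparisons share the untreated arrays. At an unadjusted p under 0.05, limma found 26 members in either direction with AP1510, beside 11.1% of all genes, and 11 with heregulin, beside 20.3%. Under array weights, 6 members were higher with AP1510 and 0 lower, and with heregulin 1 was higher and 7 were lower. The weight was 4.62 for heregulin replicate 3, against 0.584 and 0.322 for replicates 1 and 2. Heregulin results under array weights thus rest mainly on 1 array. Across all 4 groups, 44 of 57 members differed by the moderated F test, beside 28.5% of all genes. The mean of 50 members was highest in TGF-alpha cells (29.9% of all genes), and the AP1510 mean of 44 lay between those of TGF-alpha and untreated cells (46.8%). The heregulin mean was the lowest of the 4 for 38 members (20.6%), and the untreated mean for 10 (23%). For 37 members each TGF-alpha array lay above each of the 9 other arrays, as it did for 11% of all genes. With triplicate dishes, the p-values speak only of the spread from dish to dish and array to array, and 3 arrays a group limit the precision.

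**Figure D1:**
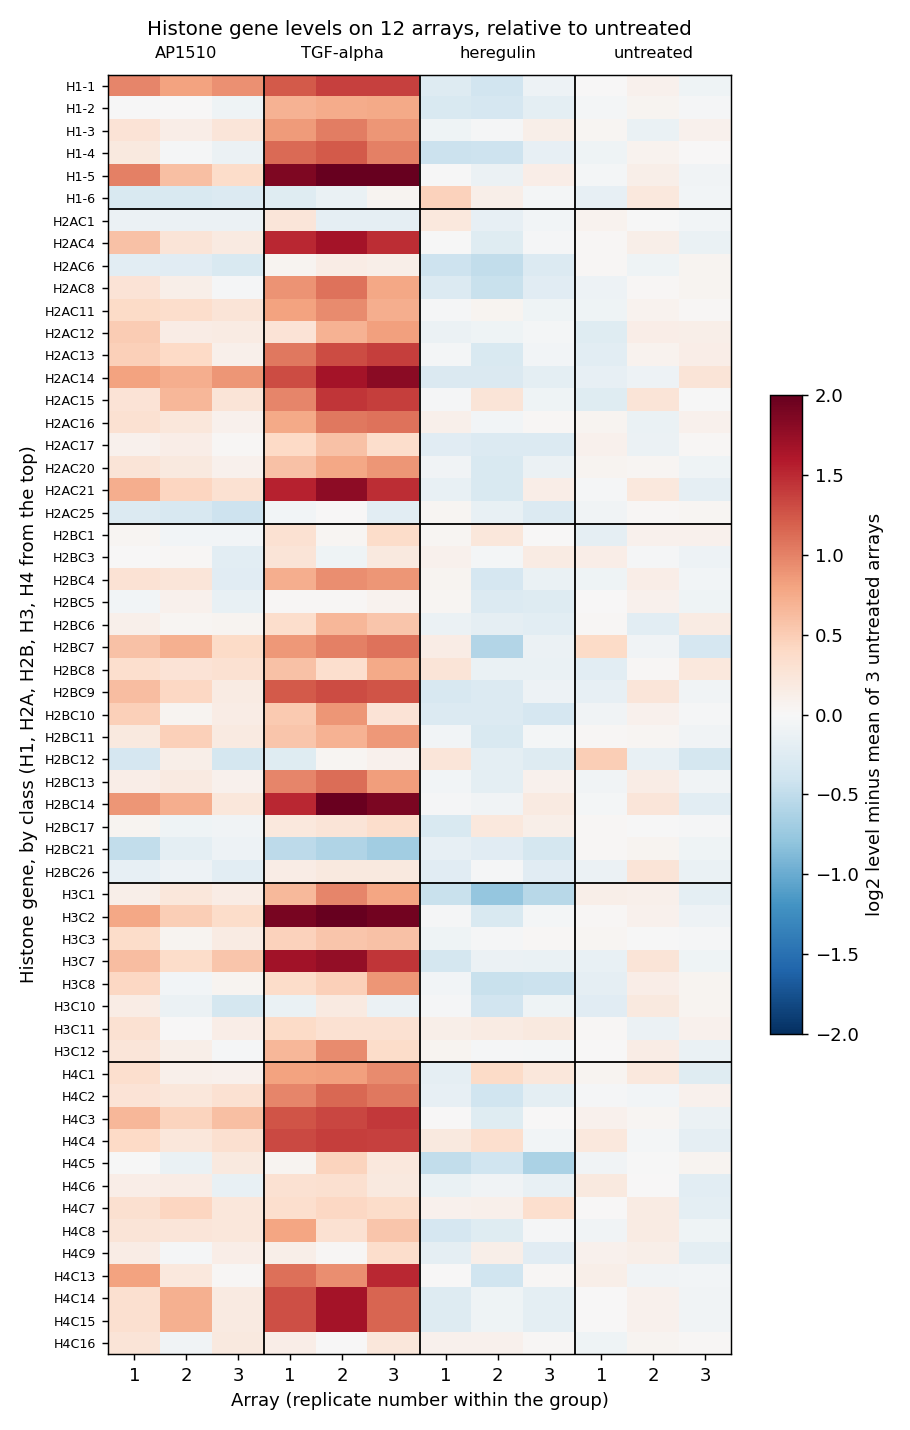
Heat map of the 57 histone members (rows, by class) on the 12 arrays (columns, AP1510, TGF-alpha, heregulin, then untreated), coloured by log2 intensity minus the untreated mean of the same probe set, with colours saturated at -2 and 2. The 3 TGF-alpha columns are highest for most members, and H2BC21 is the row that is low there and passed the test.

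The promoters differ by class in the short motifs known for histone genes. RefSeq (GRCh38.p14) promoter entries matched 52 of the 57 members; H2AC12, H3C11, H3C12, H4C1 and H4C3 had no entry in the table used. The 250 bases before each start were searched on both strands among 27305 promoters. The TATA box letters TATAAA were in 65.4% of member promoters and 11.1% of all promoters, and CCAAT was in 84.6% and 33%. The octamer ATTTGCAT, the sequence that POU factors such as OCT1 bind, was in 44.2% of member promoters and 1.66% of all. It was found in 13 of 16 H2B and 10 of 13 H2A promoters and in 0 of the H1, H3 and H4 promoters searched. AAACACA, known as the H1 box, was in 6 of 6 H1 promoters, in 0 promoters of the other classes and in 4.95% of all. CCAAT was in each H1, H2A, H2B and H3 promoter searched and in 3 of 11 H4 promoters. None of these motifs overlaps another in the stretches printed here.

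The 150 bases before the start are shown for 4 members, each ending at the base next to the start. H1-5, H2BC14 and H3C2 had the largest rises of their classes with TGF-alpha, and H2BC21 is the member that fell. Capitals mark the motifs above, on either strand (CCAAT reads ATTGG on the other). The stretches are chr6:27867589-27867738 on the minus strand for H1-5, chr6:27814872-27815021 on the plus strand for H2BC14, chr1:149886683-149886832 on the minus strand for H2BC21 and chr6:26032100-26032249 on the minus strand for H3C2.
H1-5: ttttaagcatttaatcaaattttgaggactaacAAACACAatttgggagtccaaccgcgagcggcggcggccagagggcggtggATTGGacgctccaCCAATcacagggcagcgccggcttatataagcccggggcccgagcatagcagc
H2BC14: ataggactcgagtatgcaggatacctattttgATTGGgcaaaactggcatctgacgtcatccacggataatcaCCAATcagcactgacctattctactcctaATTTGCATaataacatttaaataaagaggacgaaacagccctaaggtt
H2BC21: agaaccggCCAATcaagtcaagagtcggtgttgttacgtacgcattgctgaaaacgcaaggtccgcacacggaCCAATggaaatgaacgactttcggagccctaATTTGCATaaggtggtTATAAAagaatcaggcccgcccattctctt
H3C2: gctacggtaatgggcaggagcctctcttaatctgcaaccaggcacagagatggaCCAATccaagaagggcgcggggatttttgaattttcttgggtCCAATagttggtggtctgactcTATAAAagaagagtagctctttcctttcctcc

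H2BC21 and H2BC14 both carry the octamer, CCAAT and TATAAA letters within the 250 bases searched, while their changes had opposite signs. The octamer was in 16 of the 36 searched members that were higher with TGF-alpha and in 7 of the 16 that were not. Within H2B it was in 8 of 9 and 5 of 7. The median TGF-alpha change was 0.71 for the 23 members with the octamer and 0.80 for the 29 without. Head-to-head neighbours share searched bases, so these counts can hold the same site for both genes. A match is a description of these letters and not of binding.

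Class by class, the mean level of the members on an array was highest in the 3 TGF-alpha arrays of every class. H1 members averaged 7.47 ± 0.1 in AP1510 cells, 8.24 ± 0.08 in TGF-alpha cells, 7.11 ± 0.07 in heregulin cells and 7.22 ± 0.06 in untreated cells (log2 intensity, SD, n = 3 each here and below). H2A members averaged 6.09 ± 0.09 with AP1510, 6.72 ± 0.09 with TGF-alpha, 5.75 ± 0.06 with heregulin and 5.88 ± 0.05 untreated. For these classes the AP1510 arrays lay between the TGF-alpha and the untreated arrays without overlap. H2B members averaged 6.11 ± 0.1 with AP1510, 6.52 ± 0.05 with TGF-alpha, 5.89 ± 0.06 with heregulin and 5.99 ± 0.07 untreated. Here the AP1510 and untreated arrays overlapped, and so did the heregulin and untreated arrays. H3 members averaged 6.16 ± 0.14 with AP1510, 6.76 ± 0.09 with TGF-alpha, 5.79 ± 0.07 with heregulin and 5.95 ± 0.08 untreated. H4 members averaged 6.28 ± 0.07 with AP1510, 6.81 ± 0.03 with TGF-alpha, 5.93 ± 0.03 with heregulin and 6.02 ± 0.08 untreated. The AP1510 arrays lay above the untreated ones in H3 and H4, and the heregulin arrays lay below them in H2A and H3.

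**Figure D2:**
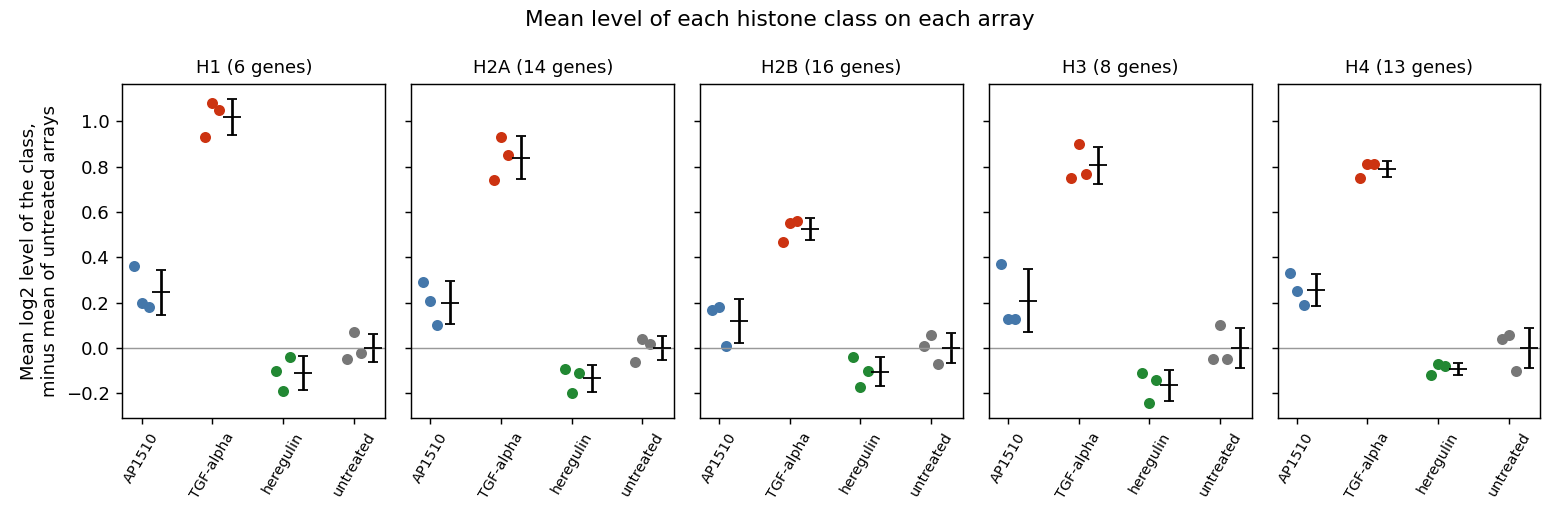
Mean log2 intensity of the members of each class on each array, by group (points are arrays, bars the mean and SD of 3 arrays). The TGF-alpha arrays lie above the arrays of the other groups in each class.

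The median change with TGF-alpha was 1.03 for H1, 0.87 for H2A, 0.54 for H2B, 0.62 for H3 and 0.85 for H4 on the log2 scale. Higher with TGF-alpha were 5 of 6 H1, 11 of 14 H2A, 9 of 16 H2B, 7 of 8 H3 and 9 of 13 H4 members. The share over all genes was 12.5%. The difference between classes was not tested, and the H1 median rests on 6 genes. With H4C14 and H4C15 counted once, a count chosen after seeing the data, 40 members were higher and the H4 median was 0.70. With AP1510 the class medians ran between 0.08 in H2B and 0.27 in H4, and with heregulin between -0.15 in H3 and -0.11 in H4. These small medians moved by over 1.5 times with the processing: with heregulin to -0.05 for H3 and -0.04 for H2B without heregulin replicate 2, to -0.05 for H4 without untreated replicate 1 and -0.19 without untreated replicate 3, and to -0.25 for H1 without dim genes or -0.03 with array weights. With AP1510 the H1 median of 0.12 was 0.22 without dim genes.

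**Figure D3:**
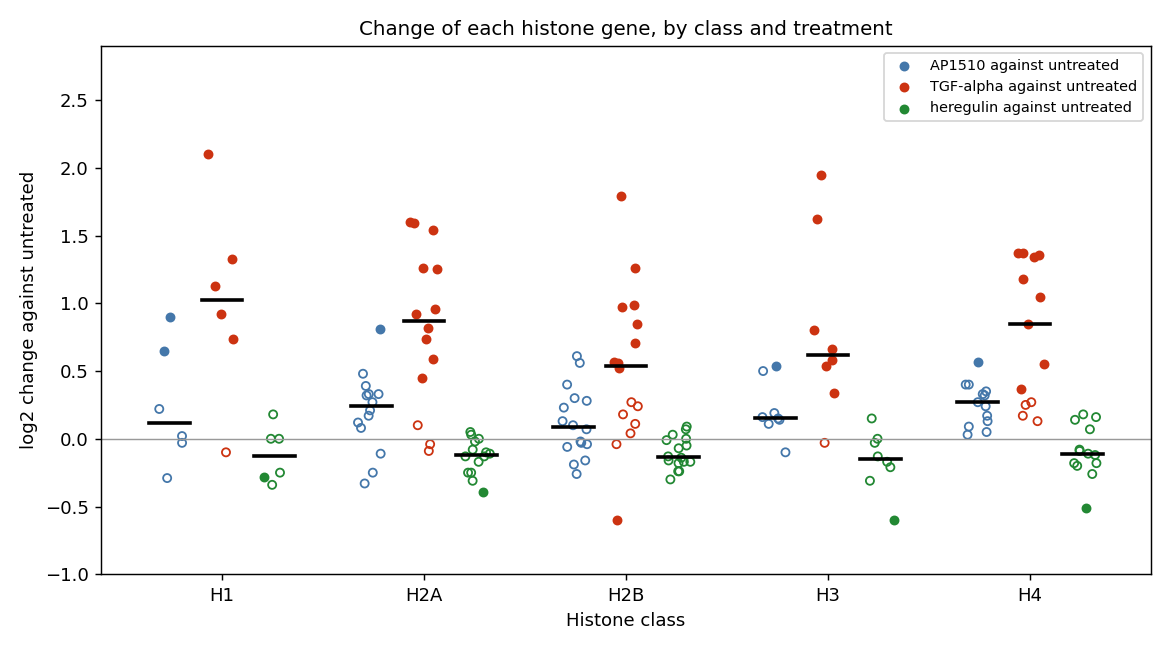
Log2 change of each member against untreated, by class, for AP1510, TGF-alpha and heregulin (filled points passed an adjusted p of 0.05, open points did not, bars are class medians). With TGF-alpha the H1 median is 1.03 and the H2B median 0.54, and the H2B point at -0.60 is H2BC21.

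Among the linker histones, H1-1, H1-2, H1-3, H1-4 and H1-5 rose with TGF-alpha, and H1-6, the testis variant, did not pass. H1-5 read 9.45, 9.05 and 8.81 in AP1510 cells, 10.32, 10.67 and 10.66 in TGF-alpha cells, 8.44, 8.34 and 8.58 in heregulin cells and 8.41, 8.56 and 8.38 in untreated cells. Every TGF-alpha array was above every other, the AP1510 arrays stood apart above the untreated ones, and heregulin and untreated overlapped. Its TGF-alpha change was 2.10 ± 0.14 (SE), or 4.29-fold (limma adjusted p = 1.9e-08), the largest among members, and its AP1510 change was 0.65 ± 0.14, or 1.57-fold (limma adjusted p = 0.03). The first AP1510 array was the highest of its group, and without it the adjusted p was 0.14.

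H1-1 had 7.24, 7.07 and 7.18 in AP1510 cells, 7.49, 7.63 and 7.63 in TGF-alpha cells, 6, 5.87 and 6.16 in heregulin cells and 6.26, 6.34 and 6.17 in untreated cells. The 4 groups did not overlap. It had the largest AP1510 change of the members that passed, 0.90 ± 0.09 (SE), 1.87-fold (limma adjusted p = 0.00017), beside 1.33 ± 0.09, 2.51-fold, with TGF-alpha (3.6e-08). H1-4 had 10.74, 10.51 and 10.43 with AP1510, 11.68, 11.77 and 11.55 with TGF-alpha, 10.11, 10.13 and 10.37 with heregulin and 10.45, 10.61 and 10.55 untreated. Only the TGF-alpha arrays were above the untreated ones as a group, by 1.13 ± 0.1 (2.19-fold, limma adjusted p = 5.1e-07), and the heregulin arrays lay below with a change of -0.34 that did not pass (0.059). H1-2, one of the members known for polyadenylated transcripts, had 7.99, 8.01 and 7.91 with AP1510, 8.70, 8.74 and 8.76 with TGF-alpha, 7.70, 7.66 and 7.80 with heregulin and 7.96, 8.06 and 7.97 untreated. TGF-alpha arrays were all above and heregulin arrays all below the untreated ones. It rose by 0.74 ± 0.08 with TGF-alpha (limma adjusted p = 2.3e-06) and changed by -0.28 ± 0.08 with heregulin (0.039). The heregulin call passed in 4 of the 12 fits that left out 1 array, with an adjusted p of up to 0.13 without untreated replicate 2. H1-3 rose with TGF-alpha by 0.92 (1.2e-06), and H1-6 changed by -0.10 (0.67).

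In class H2A, 11 of the 14 members rose with TGF-alpha. H2AC21 had 8.73, 8.44 and 8.31 in AP1510 cells, 9.55, 9.80 and 9.49 in TGF-alpha cells, 7.86, 7.70 and 8.15 in heregulin cells and 7.98, 8.22 and 7.83 in untreated cells. The TGF-alpha arrays stood apart above, and heregulin and untreated overlapped. Its TGF-alpha change was 1.60 ± 0.14 (SE), 3.03-fold (limma adjusted p = 2.6e-07), and its AP1510 change of 0.48 did not pass (0.12). H2AC14 had 3.80, 3.71 and 3.87 with AP1510, 4.29, 4.66 and 4.79 with TGF-alpha, 2.70, 2.70 and 2.80 with heregulin and 2.83, 2.89 and 3.24 untreated. No groups overlapped, but its mean level was among the lowest 25% of genes. In heregulin and untreated cells it read like the leukocyte marker PTPRC, with a median of 2.96, and was not shown to be above background, so no fold is given. It was higher with TGF-alpha by 1.59 ± 0.13 (limma adjusted p = 9.3e-08) and with AP1510 by 0.81 ± 0.13 (0.004) on the log2 scale.

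H2AC20 had 10.42, 10.37 and 10.25 in AP1510 cells, 10.75, 10.94 and 11.05 in TGF-alpha cells, 10.10, 9.87 and 10.06 in heregulin cells and 10.23, 10.21 and 10.09 in untreated cells. The TGF-alpha arrays were highest, 0.74 ± 0.1 above untreated (limma adjusted p = 2.3e-05), and heregulin and untreated overlapped. H2AC6, known for polyadenylated transcripts, had 7.82, 7.81 and 7.72 with AP1510, 8.08, 8.18 and 8.14 with TGF-alpha, 7.62, 7.54 and 7.75 with heregulin and 8.06, 7.95 and 8.08 untreated. Here TGF-alpha and untreated overlapped while AP1510 and heregulin arrays were below untreated. Its changes were -0.25 ± 0.08 with AP1510 (0.22), 0.10 ± 0.08 with TGF-alpha (0.48) and -0.39 ± 0.08 with heregulin, of which the last passed (limma adjusted p = 0.0069). Of the other 10 H2A members, H2AC4, H2AC8, H2AC11, H2AC12, H2AC13, H2AC15, H2AC16 and H2AC17 rose with TGF-alpha by 0.45 in H2AC17 to 1.54 in H2AC4. H2AC1, a testis form, and H2AC25 changed by -0.04 and -0.09 and did not pass.

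Class H2B was the most divided, with 9 members higher, H2BC21 lower and 6 not passed with TGF-alpha. H2BC14 had 8.70, 8.53 and 8.04 in AP1510 cells, 9.32, 9.78 and 9.70 in TGF-alpha cells, 7.79, 7.74 and 7.99 in heregulin cells and 7.77, 8.05 and 7.60 in untreated cells. Only TGF-alpha arrays were clear of the untreated ones, by 1.79 ± 0.16 (SE), 3.46-fold (limma adjusted p = 4.4e-07). H2BC9 had 9.09, 8.90 and 8.64 with AP1510, 9.70, 9.79 and 9.74 with TGF-alpha, 8.16, 8.20 and 8.38 with heregulin and 8.32, 8.72 and 8.41 untreated. Its TGF-alpha arrays stood apart, 1.26 ± 0.12 above untreated (2.40-fold, 8.3e-07), and the other 2 treatments overlapped with untreated. H2BC7 had 8.22, 8.35 and 8.03 with AP1510, 8.50, 8.65 and 8.72 with TGF-alpha, 7.79, 7.05 and 7.53 with heregulin and 8.03, 7.57 and 7.31 untreated. Its heregulin and untreated arrays were widely spread, with SDs of 0.38 and 0.37, and the TGF-alpha arrays lay above both groups without overlap. The TGF-alpha change was 0.99 ± 0.18 (1.98-fold, limma adjusted p = 0.00053).

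H2BC21, known for polyadenylated transcripts, had 6.99, 7.30 and 7.39 in AP1510 cells, 6.97, 6.89 and 6.80 in TGF-alpha cells, 7.33, 7.27 and 7.14 in heregulin cells and 7.51, 7.54 and 7.41 in untreated cells. All 9 treated arrays were below the 3 untreated ones, and the TGF-alpha arrays were the lowest. It fell with TGF-alpha by 0.60 on the log2 scale (SE 0.1, 1.52-fold lower, limma adjusted p = 0.00032), while the AP1510 and heregulin changes of -0.26 and -0.24 did not pass (0.32 and 0.2). A probe set that names H2BC21 together with the pseudogenes H2BC19P and H2BC20P was higher with TGF-alpha by 0.75 (limma adjusted p = 9.3e-06). A further one, naming H2BC21 with H2BC18 and H2BP1, did not pass, at 0.11 (limma adjusted p = 0.43). The probe sets that name H2BC21 thus disagreed. H2BC5, H2BC12 and H2BC17 did not pass, at 0.04, -0.04 and 0.27, while a probe set naming all 3 together with H2BC12L was higher by 1.09 (3.7e-06). H2BC1, the testis form, H2BC3 and H2BC26 also did not pass, at 0.24, 0.11 and 0.18. The remaining members H2BC4, H2BC6, H2BC8, H2BC10, H2BC11 and H2BC13 rose by 0.52 in H2BC6 to 0.97 in H2BC13.

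**Figure D4:**
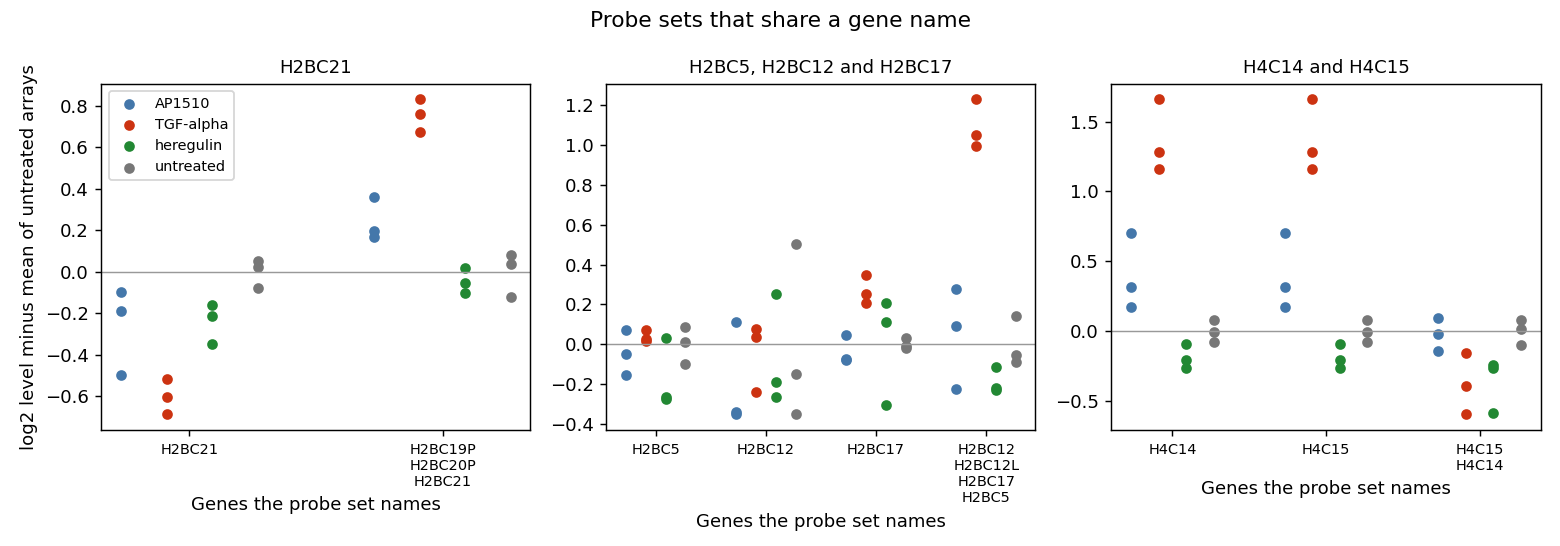
Log2 intensity on each array minus the untreated mean of the same probe set, for probe sets naming 1 gene and probe sets naming several, in 3 panels for H2BC21, for H2BC5, H2BC12 and H2BC17, and for H4C14 and H4C15. In the TGF-alpha arrays the probe sets within a panel part: the H2BC21 probe set lies at -0.69 to -0.52 and the one naming it with pseudogenes at 0.67 to 0.83. The probe set naming H2BC21 with H2BC18 and H2BP1 is not shown.

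In class H3, which encodes the replicative H3.1 protein from the chromosome 6 cluster, H3C2 had the lowest adjusted p of the members with TGF-alpha. It had 8.29, 8.01 and 7.89 in AP1510 cells, 9.42, 9.56 and 9.45 in TGF-alpha cells, 7.49, 7.21 and 7.48 in heregulin cells and 7.54, 7.61 and 7.42 in untreated cells. The TGF-alpha arrays were highest, the AP1510 arrays next and clear of untreated, and heregulin overlapped with untreated. The changes were 1.95 ± 0.11 (SE), 3.88-fold, with TGF-alpha (limma adjusted p = 3.6e-09) and 0.54 ± 0.11, 1.46-fold, with AP1510 (0.02). Without AP1510 replicate 1, the AP1510 adjusted p was 0.12. H3C7 had 7.37, 7.12 and 7.32 with AP1510, 8.44, 8.52 and 8.19 with TGF-alpha, 6.41, 6.64 and 6.62 with heregulin and 6.61, 7.01 and 6.67 untreated. TGF-alpha and AP1510 arrays were both clear of untreated, and the TGF-alpha change of 1.62 ± 0.12 passed (3.07-fold, 5.8e-08) while the AP1510 change of 0.50 just missed (0.053).

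H3C1 had 6.53, 6.63 and 6.56 in AP1510 cells, 7.06, 7.38 and 7.20 in TGF-alpha cells, 5.96, 5.63 and 5.85 in heregulin cells and 6.52, 6.51 and 6.21 in untreated cells. TGF-alpha arrays were above and heregulin arrays below all untreated arrays. It rose by 0.80 ± 0.11 with TGF-alpha (limma adjusted p = 4.1e-05) and had the largest heregulin change of the members that passed, -0.60 ± 0.11, 1.52-fold lower (0.0024). H3C3, H3C8, H3C11 and H3C12 rose with TGF-alpha by 0.34 in H3C11 to 0.66 in H3C12, and H3C10 did not pass at -0.03. A probe set naming H3C11 with H3C6 was lower with TGF-alpha, at -0.40 (limma adjusted p = 0.0034), so the probe sets that name H3C11 disagreed. One naming H3C10 with H2AC13 was higher, at 0.68 (limma adjusted p = 0.0015). The H3C8 call was lost without TGF-alpha replicate 3 (adjusted p = 0.064) and the H3C11 call without untreated replicate 2 (0.058).

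In class H4, H4C14 and H4C15 shared 1 set of values and rose most. They had 7.87, 8.26 and 7.73 in AP1510 cells, 8.84, 9.21 and 8.71 in TGF-alpha cells, 7.29, 7.46 and 7.35 in heregulin cells and 7.55, 7.63 and 7.48 in untreated cells. The groups did not overlap, and the TGF-alpha change was 1.37 ± 0.14 (SE), 2.58-fold (limma adjusted p = 1.2e-06), while AP1510 at 0.40 and heregulin at -0.18 did not pass. Another set of values, held by a pair of probe sets that name both genes, was lower with TGF-alpha, at -0.38 (0.029), so these probe sets disagreed as well. H4C3 had 9.61, 9.39 and 9.55 with AP1510, 10.21, 10.29 and 10.37 with TGF-alpha, 8.96, 8.70 and 8.95 with heregulin and 9.03, 8.99 and 8.83 untreated. TGF-alpha stood highest and AP1510 next, both clear of untreated, at 1.34 ± 0.1 (2.53-fold, 4.8e-08) and 0.57 ± 0.1 (1.48-fold, limma adjusted p = 0.0083). Without AP1510 replicate 1 the AP1510 adjusted p was 0.052.

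H4C5 had 7.06, 6.94 and 7.27 in AP1510 cells, 7.13, 7.52 and 7.28 in TGF-alpha cells, 6.57, 6.67 and 6.43 in heregulin cells and 7, 7.06 and 7.13 in untreated cells. The heregulin arrays were below all others. Its heregulin change of -0.51 ± 0.11 passed (1.42-fold lower, limma adjusted p = 0.0084) and its TGF-alpha change of 0.25 did not (0.13). H4C1, H4C2, H4C4, H4C7, H4C8 and H4C13 rose with TGF-alpha by 0.37 in H4C7 to 1.36 in H4C4, and H4C6, H4C9 and H4C16 did not pass at 0.27, 0.17 and 0.13. The H4C7 call was lost without untreated replicate 3 (adjusted p = 0.081). Of the 57 members, H1-6, H2AC1, H2AC14, H2BC1, H2BC3, H4C6, H4C7 and H4C16 had a mean level among the lowest 25% of genes, and of these 8 only H2AC14 and H4C7 passed with TGF-alpha.

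The AP1510 count rested on single arrays for 3 of its 5 calls. H1-1, H1-5, H2AC14, H3C2 and H4C3 were the 5 members higher with AP1510, and each of them was higher with TGF-alpha too. Leaving out AP1510 replicate 1 left 2 members higher, leaving out untreated replicate 1 left 3, and leaving out untreated replicate 3 left 3, within a range of 2 to 7 over the 12 arrays left out in turn. Of the 5 calls, 2 passed in all 12 fits. AP1510 replicate 1 was the highest of the 3 AP1510 arrays in 36 of 57 members. The share of all genes with that order was not counted, so it is not read as particular to the members. Without overlap between arrays, 23 members lay above untreated with AP1510, beside 7.36% of all genes, and 44 with TGF-alpha, beside 19.4%. Of the 42 TGF-alpha calls, 39 passed in all 12 fits, as did 3 of the 4 heregulin calls.

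Between treatments, 35 members were higher and H2BC21 lower in TGF-alpha cells than in AP1510 cells, beside 11.2% and 10.4% of all genes, with a median change of 0.45 beside 0.01. H1-5 differed by 1.45 (2.73-fold, limma adjusted p = 1.6e-06) and H3C2 by 1.41 (2.66-fold, 2e-07). Heregulin against TGF-alpha gave 43 members lower and 1 higher, H2BC21, beside 11.8% and 9.88% of all genes, with a median of -0.87 beside 0.03. There, 23 members were at least 2-fold lower, beside 1.72% of all genes, and the extremes were H1-5 at -2.10 and H3C2 at -2.08. Heregulin against AP1510 gave 25 lower and 1 higher, H1-6, beside 3.95% and 3.27% of all genes, with a median of -0.33 beside 0.02. H1-1 had the largest of these changes, -1.15, 2.22-fold lower (limma adjusted p = 1e-06). That count of 25 was 14 without AP1510 replicate 1, 12 without AP1510 replicate 2 and 13 without heregulin replicate 2, and 10 of the 26 calls passed in all 12 fits. The H1-6 difference of 0.47 passed in 7 of 12, with an adjusted p of 0.11 without heregulin replicate 1. H2BC21 against AP1510 changed by -0.34 with TGF-alpha and passed in 8 of 12 fits, and its heregulin against TGF-alpha change of 0.36 passed in 9 of 12.

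Some H2A and H2B genes lie head to head with their starts side by side, and 9 such neighbour pairs were found with both genes among the members. The search took the strand from the promoter entries, so H2AC12, which had none, could not be placed in a pair. With TGF-alpha both genes rose in 4 pairs, at 1.59 and 1.79 in H2AC14 and H2BC14, 0.97 and 1.25 in H2BC13 and H2AC13, 0.71 and 0.82 in H2BC11 and H2AC11, and 0.56 and 0.92 in H2BC8 and H2AC8. In the pair of H2BC21 and H2AC20, the first fell and the second rose, at -0.60 and 0.74. H2BC4 rose by 0.85 while its neighbour H2AC6 was at 0.10 and did not pass, and H2AC17 rose by 0.45 while H2BC17 was at 0.27 and did not pass. Neither gene passed in the pairs of H2AC1 with H2BC1 and of H2AC25 with H2BC26. The difference within a pair was not tested.

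Members known to make polyadenylated transcripts besides stem-loop ones were H1-2, H2AC6, H2BC4, H2BC5, H2BC11, H2BC12, H2BC21 and H4C8. Of these 8, 4 were higher and 1 lower with TGF-alpha, with a median of 0.32. Of the other 49 members 37 were higher and 0 lower, with a median of 0.82. Over all genes, 12.5% were higher and 13.4% lower with TGF-alpha, and 5.06% were lower with heregulin. With AP1510 the medians were -0.03 and 0.21. With heregulin they were -0.18 and -0.11, and H1-2 and H2AC6 of the 8 and H3C1 and H4C5 of the 49 were lower, the H1-2 call resting on single arrays as above. The list was chosen with results of these data known, and the difference was not tested.

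Genes around the histone pathway were followed through 5 further lists. Their counts stand beside the shares of all genes tested. These were 12.5% higher and 13.4% lower with TGF-alpha, 0.771% and 0.7% with AP1510, and 3.45% and 5.06% with heregulin. Of the 15 measured genes of histone gene transcription and stem-loop processing, 6 rose with TGF-alpha and 0 fell, with a median of 0.20. SLBP, which binds the stem loop, rose by 0.39 (limma adjusted p = 0.0021), CPSF3, the endonuclease that cuts histone pre-mRNA, by 0.54 (0.00095), the S-phase regulator E2F1 by 0.48 (0.0036) and the cleavage factor CSTF2 by 0.45 (0.0036). NPAT, the histone gene coactivator, changed by -0.10 (0.57) and its partner CASP8AP2 by 0.12 (0.49), and neither passed. AP1510 and heregulin moved 0 of the 15 past the threshold. Of 8 genes of histone mRNA decay, ERI1, the exonuclease that trims the stem loop, rose with TGF-alpha by 0.84 (8.7e-05), EXOSC10 by 0.54 and LSM4 by 0.44. XRN1, the 5'-to-3' exonuclease, and TUT7, a uridylyl transferase named after its value was seen, were lower, at -0.43 and -0.28, and that count of 2 was 1 when any TGF-alpha array was left out, and likewise without AP1510 replicate 3, heregulin replicate 3 or untreated replicates 1 or 3. The decay list's median was 0.12.

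Of 24 histone chaperones and deposition factors, 16 rose with TGF-alpha and 0 fell, beside 12.5% and 13.4% of all genes. Their median was 0.48. HJURP, the CENP-A chaperone, changed by 1.42 (3.5e-08), MMS22L, which acts at replication forks with TONSL, by 1.34, MCM2, a helicase subunit that also binds H3 and H4, by 1.19 and CHAF1B, a subunit of the CAF-1 assembly factor, by 1.16. With AP1510, HJURP and ANP32E passed, at 0.48 and 0.44; neither passed without AP1510 replicate 1 or any 1 of the untreated arrays. With heregulin only ASF1A was lower, at -0.46, beside 5.06% of all genes. It was 1 of 2 lower without heregulin replicate 1. ANP32E and ASF1A were named after their values were seen. Among 11 replacement histone variants, which are made outside S phase too, 4 rose with TGF-alpha, beside 12.5% of all genes. The median was 0.12. H2AZ1 rose by 1.47, 2.77-fold (limma adjusted p = 1.3e-06), H2AX, the variant phosphorylated at DNA breaks, by 0.32 (0.013), H2AZ2 by 0.32 (0.036) and H3-5 by 0.26 (0.025). That count of 4 was 1 without TGF-alpha replicate 2, and 2 without TGF-alpha replicate 3 or without untreated replicate 1 or 3. With AP1510, H2AZ1 passed at 0.63 (0.047), a call that was lost without any 1 of AP1510 replicates 1 and 2, the TGF-alpha arrays and the untreated arrays, and with arrays centred on their medians. With heregulin the macroH2A genes MACROH2A1 and MACROH2A2, named after their values were seen, were lower, at -0.27 and -0.51, beside 5.06% of all genes. That count of 2 was 0 without untreated replicate 2 and 1 without any heregulin array or either other untreated array. CENPA was not analysed here.

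Of 29 measured S phase and replication genes, 27 rose with TGF-alpha and 0 fell, beside 12.5% and 13.4% of all genes. Their median was 1.31, and CCNE1 and CCNE2 did not pass. TYMS, thymidylate synthase, changed by 2.40 (2.7e-08), CDC45 and the clamp loader subunit RFC4 by 2.07 and 1.97, and the primase PRIM1 by 1.80. With AP1510 the median was 0.35 and ORC1 and CCNA2, at 0.55 and 0.69, were the 2 that passed; this count was 1 without AP1510 replicate 1 or any 1 untreated array and 4 without heregulin replicate 1. With heregulin the median was 0.07 and limma passed 0 of them, up to 1 in a direction with an array left out, and 5 under array weights. The weighted heregulin values rest mainly on heregulin replicate 3, as above. The list's mean level was 6.85 ± 0.11 in AP1510 cells, 7.80 ± 0.08 in TGF-alpha cells, 6.51 ± 0.13 in heregulin cells and 6.52 ± 0.02 in untreated cells (SD, n = 3 each). All members together averaged 6.29 ± 0.09 with AP1510, 6.85 ± 0.06 with TGF-alpha, 5.98 ± 0.04 with heregulin and 6.10 ± 0.05 untreated. In both sets the TGF-alpha arrays were highest and the AP1510 arrays next, above untreated. With heregulin the list's arrays, at 6.39 to 6.65, overlapped with the untreated ones at 6.50 to 6.55, while the members' arrays, at 5.93 to 6.01, lay below the untreated ones at 6.05 to 6.16. The part of the S phase genes in the members' levels was not tested.

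**Figure D5:**
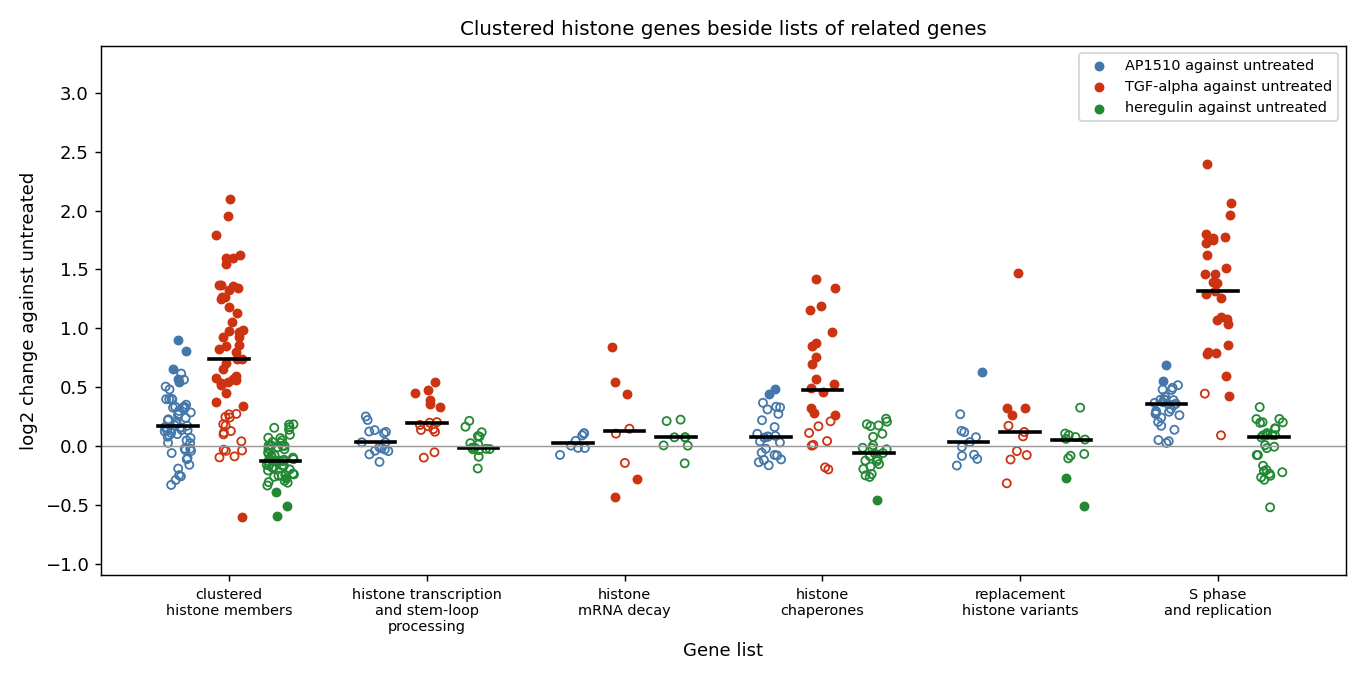
Log2 change against untreated of each gene of the histone members and the related lists, for AP1510, TGF-alpha and heregulin (filled points passed an adjusted p of 0.05, open points did not, bars are medians). With TGF-alpha the medians are 0.74 for the members, 1.31 for S phase genes and 0.48 for chaperones.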

How the data were processed

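The authors deposited log2 intensities made with RMA, per the submitters' processing notes, which give no version; RMA subtracts background, brings all arrays to 1 distribution and reduces probes to probe sets. That step can hide a shift common to most genes. Of 33297 probe sets, 19460 named exactly 1 gene, 1754 several and 12083 none; the first kind was used, with the probe set of highest mean over the 12 arrays for each gene. Symbols of all 57 members matched RefSeq through Entrez IDs. Groups came from the treatment label. The 18417 genes were fitted with limma 3.58.1 in R 4.3.3, as 4 group means with 8 residual and 7.55 prior degrees of freedom. Two-sided contrasts were adjusted by Benjamini-Hochberg over genes. The fit was also run on data simulated with normal noise from its own variances, which cannot test how well that noise describes the arrays. No scaling, filter or pseudocount was applied.

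The members, lists and tests were chosen with earlier results of these data known. Values per array are given for the largest change per class and treatment among members that passed, and for the 3 members of highest mean per class; H2BC21 was added after its values were seen. Of the lists, SLBP, NPAT, CASP8AP2, H2AX, H2AZ1 and CENPA are named, with up to 4 per list of the largest TGF-alpha changes that passed; a further gene of that choice is not reported here. For arrays, their number limits the precision. Alternatives were repeated quantile normalization, median centring, leaving out dim genes, other probe set choices, other fits and each array left out.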

Additional observations from a re-analysis of the deposited data

Results flagged for a closer look

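Probe sets that name several genes were outside the comparisons above. There were 20 naming at least 1 clustered histone, with 17 distinct sets of values. In a limma fit of 21214 probe sets, 14 of the 20 were higher and 3 lower with TGF-alpha than untreated, with equal probe sets counted separately. Of all probe sets fitted, 12.4% were higher and 13.1% lower. The changes that passed above the level of untreated cells, on the log2 scale, follow. They were 0.78 for H2BC18 with H2BP1, 0.59 for H2AC18 to H2AC21, and 0.81, 0.70 and 1.32 in the probe sets naming H3C13, H3C14 and H3C15, the H3.2 genes of chromosome 1. H4C11 with H4C12 gave 0.89 and 1.11, H3C10 with H2AC13 gave 0.68, H2BC15 with H2AC15 gave 1.08 and H3C4 with H2AC7 gave 1.24. H2BC21 with H2BC19P and H2BC20P gave 0.75, against -0.60 for the probe set of H2BC21 alone. H2BC5, H2BC12, H2BC12L and H2BC17 together gave 1.09, against 0.04, -0.04 and 0.27 for H2BC5, H2BC12 and H2BC17 alone. The lower ones were a pair of equal probe sets naming H4C14 and H4C15, at -0.38, and H3C11 with H3C6, at -0.40. The probe set of H3C11 alone was at 0.34. Those that did not pass were another probe set naming H2BC18 with H2BP1, at -0.16, and H2BC18 with FCGR1BP, at 0.06. The probe set naming H2BC18, H2BP1 and H2BC21 did not pass either, at 0.11. Which genes these probe sets read was not tested.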

How the results depend on the processing

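No paired analysis was possible because the labels give no replicate numbers shared between groups. No change that passed, and no class median, changed sign under an alternative; small changes that did not pass could, such as H2BC12 with TGF-alpha, at -0.22 to 0.21 with an array left out. The 41 members higher with TGF-alpha were 40 to 42 with any array left out. Leaving out each array gave ranges of 2 to 7 members higher with AP1510, 12 to 24 lower in heregulin against AP1510, and 0 to 1 higher in heregulin against AP1510, lower in TGF-alpha against AP1510 and higher in heregulin against TGF-alpha. Class medians against untreated then ran from 0.16 to 0.30 for H2A with AP1510, -0.18 to -0.04 for H2B, -0.20 to -0.05 for H3 and -0.19 to -0.05 for H4 with heregulin, and 0.43 to 0.58 for H2B and 0.73 to 0.96 for H4 with TGF-alpha. Heregulin against AP1510 had 0 members higher with a fit of the 2 groups, array weights, dim genes left out or quantile normalization repeated, and 16 lower with the 2 groups. Array weights, which rest mainly on replicate 3 for heregulin, gave 1 higher and 7 lower with heregulin, and medians of -0.03 for H1 and -0.05 for H4. Dim genes left out gave H1 medians of 0.22 with AP1510, 1.13 with TGF-alpha and -0.25 with heregulin, and an H4 median of 1.12 with TGF-alpha. Several-gene histone probe sets added gave 4 lower with TGF-alpha against untreated and 4 against AP1510, and medians of 0.78 for H2A with TGF-alpha, -0.03 for H3 with heregulin and 0.18 for H4 with AP1510. With H4C14 and H4C15 counted once, chosen after seeing the data, the H4 TGF-alpha median was 0.70. The cause was not tested, except that the dim genes, the 2-group fits and the added probe sets change which genes or arrays are counted. Over single genes, a call was counted once for each gene, contrast and alternative. Other alternatives made 45 such calls and lost 35, in 28 and 20 pairs of gene and contrast. Leaving out an array made 29 and lost 171, in 20 and 41 such pairs.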
